A study of Trichoderma reesei with 12 samples.

Results

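The response of the wild-type of the filamentous fungus Trichoderma reesei to constant light was followed across all genes by comparing mycelia grown in constant light (LL) with mycelia grown in constant darkness (DD). The comparison rests on 6 of the 12 libraries of the series, 3 in LL and 3 in DD, which were chosen by their labels for strain and light. The wild-type is QM6a. Mycelia were grown in triplicate shake flasks in minimal medium with cellulose as carbon source for 96 h at 28 °C, and total RNA was depleted of ribosomal RNA before sequencing. DD cultures were harvested under weak red safety light. The other 6 libraries, 3 in LL and 3 in DD, come from Δrgs4, a transformant of QM6a in which a hygromycin resistance cassette, present in multiple copies, replaces a regulator of G-protein signaling. They serve here to estimate the spread between libraries and as a set of samples of their own. As the RNA is from whole mycelium, fewer cells of a type and less RNA per cell cannot be told apart.

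Light is an environmental signal to which many filamentous fungi adjust growth, sporulation, enzyme production and secondary metabolism. T. reesei perceives blue light through the BLR1 and BLR2 proteins, and ENV1 adjusts the response. On cellulose the fungus secretes enzymes that degrade the plant cell wall, and its secondary metabolites include siderophores, which bind iron, and the yellow sorbicillins.

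The 12 libraries of the series held between 11.25 and 15.84 M reads assigned to genes (M, mega), with 11.25, 15.67 and 13.86 M in LL and 14.35, 13.05 and 13.83 M in DD. Transcript levels are given as normalized counts, meaning reads scaled by a size factor for each library. They are not corrected for gene length. Light separated the 6 wild-type libraries, with Pearson's r across genes between 0.989 and 0.993 within LL, between 0.987 and 0.991 within DD, and between 0.841 and 0.858 for libraries of different light conditions. The first principal component held 92.0% of the variance. Identifiers in the files carry no gene names, so that a function is given only for genes that the paper's text or its supplement annotates. An identifier gives the chromosome (letter), the order on it (number) and the strand (W or C).

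Of the 10879 genes in the file, 8895 had at least 10 reads in at least 3 libraries and were tested with limma. In LL 1361 genes were higher and 1919 genes were lower than in DD, at a log2 fold change above 0.58 in size and an adjusted p under 0.05 (Benjamini-Hochberg). These are 15.3% and 21.6% of the tested genes, 36.9% together. Libraries of LL and DD did not overlap for 1349 of the higher and 1907 of the lower genes, and for 68.1% of all tested genes. The median over all tested genes was -0.01. Scaling by size factors itself brings this median near 0, so it is no result about light. The values as deposited are compressed for genes with few reads, and with them 721 genes were called higher and 1292 lower.

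Decreases in light were larger than increases. The median log2 fold change was 0.98 among the genes called higher and -1.61 among those called lower. Over 4-fold differences were found for 207 of the higher genes (15.2%) and for 740 of the lower genes (38.6%), and over 100-fold differences for 10 and 63. Genes called higher took 24.4% of all reads in LL, against 8.68% in DD. Genes called lower took 9.10% of the reads in LL, against 27.5% in DD. At most 3 reads in each LL library were found for 185 of the lower genes, 45 of which averaged at least 100 normalized counts in DD. In the other direction 44 of the higher genes had at most 3 reads in each DD library, and 6 of them averaged at least 100 normalized counts in LL. Genes called lower were most frequent among genes with few reads. Of 5 classes of 1779 genes by mean level in the wild-type, the lowest held 35.4% genes called lower and the other 4 held between 14.6% and 22.8%, while genes called higher made up between 11.02% and 20.3%. Both directions occurred on all 7 chromosomes, with shares called higher between 12.1% (chromosome G) and 19.0% (F) and shares called lower between 20.2% (A) and 24.0% (G).

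**Figure D1:**
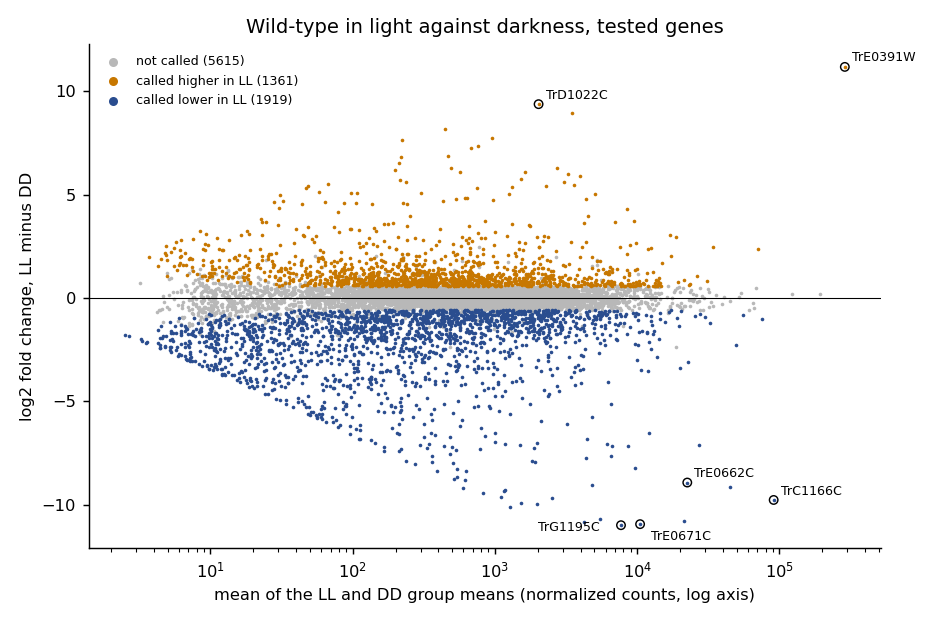
Log2 fold change of each tested gene (LL minus DD, on log2(normalized counts + 2)) against its mean level in normalized counts on a log axis, with called genes in colour and named genes circled. Genes called lower reach below -10 at high levels in DD, while TrE0391W lies at 11.18 and far to the right of the other genes called higher.

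A single gene stood out in light. TrE0391W, which has no annotation in the sources used here, had 611757, 545262 and 570968 normalized counts in LL, against 478, 191 and 162 in DD. Its log2 fold change was 11.18 ± 0.46 (SE), with all LL libraries far above all DD libraries. It took 4.28% of all reads in LL, the largest share of any gene, against 0.00205% in DD. The next largest rise by the rule used for naming genes was that of TrD1022C, with 4219, 3940 and 3987 normalized counts in LL, against 4.73, 2.14 and 6.04 in DD (log2 fold change 9.38 ± 0.48). The gene with the largest share of the reads in DD was TrC1166C. It fell to 227, 173 and 227 normalized counts in LL, against 176548, 193589 and 175674 in DD, which is 0.00154% of the reads in LL and 1.31% in DD (log2 fold change -9.76 ± 0.24). The largest decreases were those of TrG1195C and TrE0671C. TrG1195C had 1.22, 1.69 and 32.2 normalized counts in LL, against 12372, 20297 and 13449 in DD (-10.98 ± 1.0). Its LL libraries differed from each other by more than 10-fold and still lay far below DD, with -12.09 without LL replicate 3 and -10.38 without LL replicate 1. TrE0671C had 9.78, 5.08 and 12.3 normalized counts in LL, against 19773, 25201 and 17873 in DD (-10.93 ± 0.53). None of these genes has an annotation in the sources used here.

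Functions or other annotations could be given for 109 genes, grouped in 19 lists. A few of them are listed only as mutated in other strains and have no known function. The authors selected most of these genes because they changed in Δrgs4, in a test that used the same wild-type libraries, so the lists are not a sample of the genome and their shares cannot be set against those of all genes. The wild-type levels in LL and DD took part in that selection and can favour a direction of change. All 109 were tested, 17 were called higher and 54 lower in LL, and their median log2 fold change was -0.55. With treat against 1.5-fold, 14 of the called genes named here were not called, namely 4 ribosomal protein genes, TrD0323C, TrF0181C, TrB0322W, TrA1398C, TrC1540W, TrA2081W, TrB1934C, TrB1006C, TrB1064C and TrB1223W. With the values as deposited TrF0181C, TrC1540W, TrB1934C, TrB1006C, TrB1064C and TrB1223W were not called. The deleted gene rgs4 (TrG0496W) itself had 1797, 1726 and 1859 normalized counts in LL, against 1618, 1700 and 1637 in DD. It was not called (log2 fold change 0.12 ± 0.48). The Δrgs4 libraries had 4, 0 and 0 reads of it in LL and 5, 0 and 0 reads in DD, and their spread enters this SE.

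**Figure D2:**
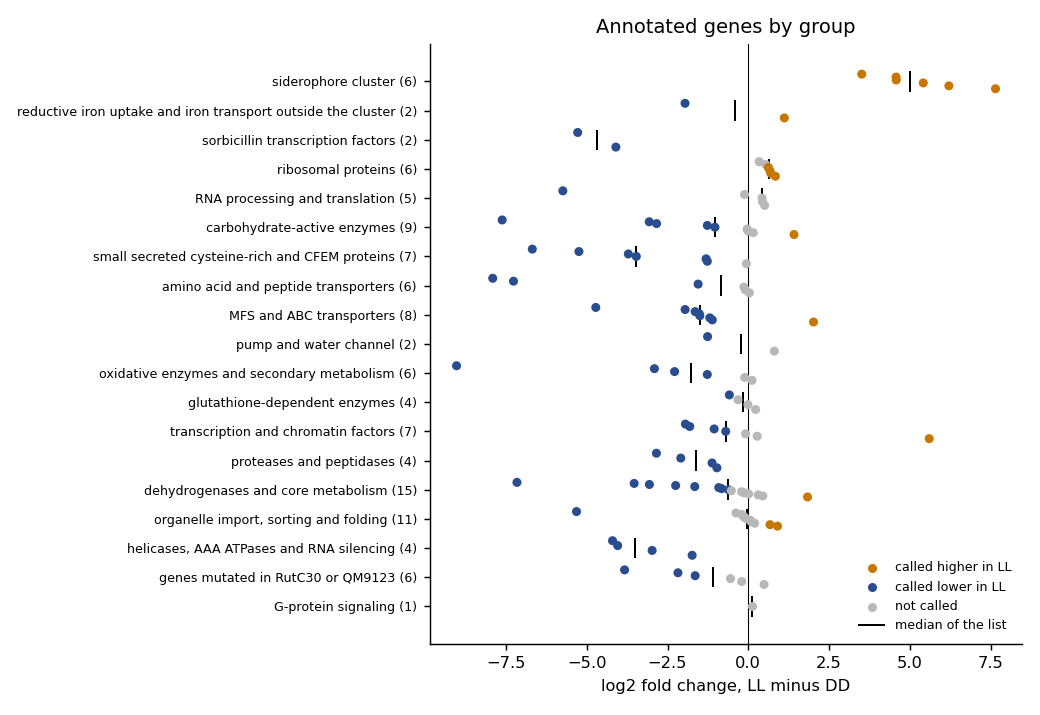
Log2 fold change (LL minus DD, on log2(normalized counts + 2)) of the 109 annotated genes in 19 lists, with the number of genes in brackets, calls in colour and the median of each list as a bar. The 6 genes of the siderophore cluster lie between 3.51 and 7.65, while helicases, proteases and most transporters lie below 0.

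Genes for iron uptake went in different directions. Fungi take up iron either with siderophores, small secreted molecules that bind ferric iron and are imported again, or by reduction at the cell surface, where a ferroxidase and a permease act together. All 6 genes of the siderophore cluster were higher in LL. Transcript levels of SID4 (TrE0011C, tex20), the nonribosomal peptide synthetase of the cluster, were 807, 344 and 201 normalized counts in LL, against 29.3, 29.97 and 36.2 in DD, a log2 fold change of 3.51 ± 0.52 (SE) with an adjusted p of 0.000137. SID6 (TrE0014C), a hydroxyornithine transacylase, had 732, 357 and 243 normalized counts in LL and no read in DD, so that it was at least 416-fold higher in LL (with a floor of 3 reads over the group, counting error only). Leaving out single wild-type libraries gave bounds from 269-fold (without DD replicate 1) to 508-fold. SID8 (TrE0015W), of the enoyl-CoA hydratase/isomerase family, had 166, 82.1 and 41.7 normalized counts in LL and no read in DD, at least 90.2-fold higher. This bound was 62.7-fold without LL replicate 1 and 58.3-fold, 61.99-fold and 60.2-fold without DD replicates 1, 2 and 3. In all of these genes LL replicate 1 had the highest and LL replicate 3 the lowest level, while the DD libraries were close to each other.

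The esterase TrE0012W, which releases iron from siderophores, had 463, 208 and 128 normalized counts in LL, against 10.4, 6.42 and 7.04 in DD (4.57 ± 0.49). The cluster's ABC transporter TrE0013C had 711, 306 and 167 in LL, against 0.946, 3.21 and 4.02 in DD (6.21 ± 0.60). The siderophore transporter TrE0016W had 314, 129 and 68.3 in LL, against 6.62, 2.14 and 4.02 in DD (4.58 ± 0.67). The spread among LL libraries was therefore several-fold but did not reach the DD levels. The median of the 6 genes was 4.99, and 5.39 with SID6 and SID8 at their bounds. Outside the cluster, the iron transporter TrD0323C had 7239, 2786 and 5723 normalized counts in LL, against 2354, 2327 and 2077 in DD (1.11 ± 0.28, adjusted p 0.0047), with LL replicate 2 close to DD. The ferroxidase fet3b (TrD0040C), of the reductive pathway, fell to 88.0, 137 and 184 in LL, against 499, 542 and 499 in DD (-1.96 ± 0.23).

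The sorbicillin transcription factors were both lower in LL. Sorbicillins are yellow polyketides, and ypr1 and ypr2 are known as regulators of their gene cluster. Transcript levels of ypr2 (TrE0663W) were 469, 410 and 439 normalized counts in LL, against 7832, 7072 and 7769 in DD (-4.10 ± 0.11, adjusted p 3.6e-10). ypr1 (TrE0665C) had 1 read in the 3 LL libraries together and 273 reads in DD, which makes it 279-fold higher in DD (95% interval from counting alone 49.7 to 11074). The read was in LL replicate 3, without which the difference was at least 60.97-fold, and without LL replicate 2 it was 171-fold. Both genes lie in a run of 7 neighbouring genes called lower, TrE0659C to TrE0665C, which was looked at because it holds them. Summed over the run, levels were 904, 763 and 933 normalized counts in LL, against 64500, 64804 and 69637 in DD, a 76.5-fold difference of the means. Most of these counts fell on TrE0662C, with 103, 77.0 and 93.9 in LL, against 48026, 42663 and 44003 in DD.

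**Figure D3:**
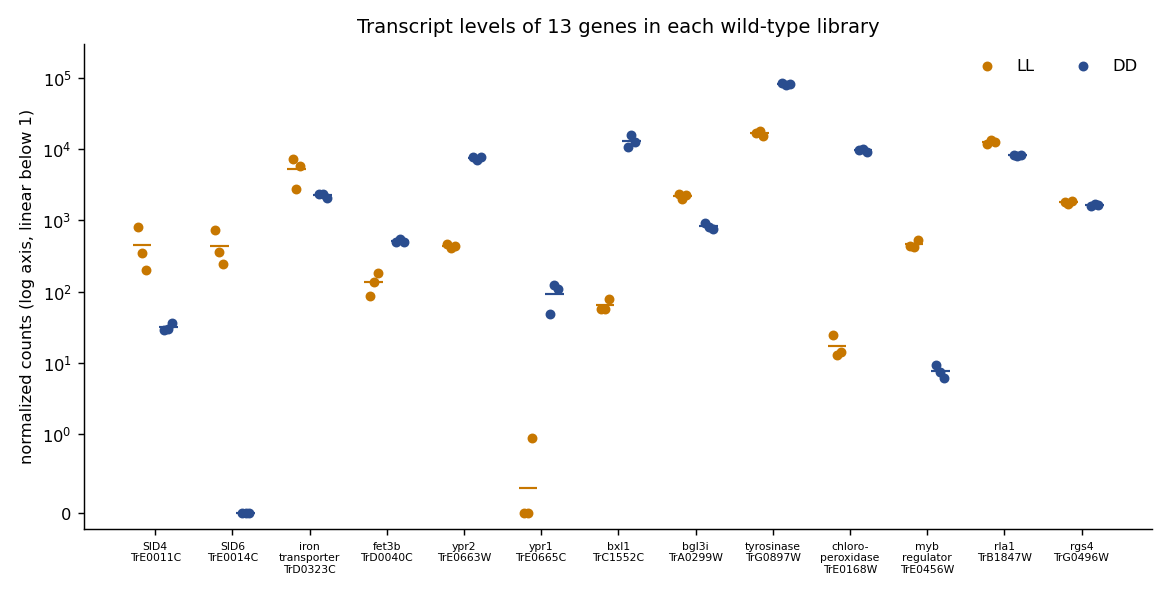
Normalized counts of 13 genes in each of the 3 LL and 3 DD libraries (axis logarithmic above 1 and linear below), with the group mean as a line. The points of LL and DD do not overlap for any of the 13 genes, and rgs4, which was not called, differs least between the conditions.

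Of 6 genes for ribosomal proteins, which are needed in all growing cells, 4 were called higher in LL. LL libraries lay above DD libraries in all 6 genes. In either direction, libraries of LL and DD did not overlap for 68.1% of all tested genes. The paper lists these 6 genes as lower in Δrgs4 in light. The wild-type levels in LL thus took part in their selection, which can favour a rise in LL. The acidic stalk protein gene rla1 (TrB1847W) had 11734, 13484 and 12549 normalized counts in LL, against 8239, 8131 and 8170 in DD (0.62 ± 0.061). rla2 (TrD0208W) had 7293, 9359 and 8356 in LL, against 4982, 5019 and 3997 in DD (0.84 ± 0.11). The log2 fold changes of rps28 (TrC1311W) and of the gene for ribosomal protein S10 (TrB0953C) were 0.67 ± 0.087 and 0.70 ± 0.072. Those of rps21 (TrB0594C) and TrC1283C, a possibly mitochondrial ribosomal protein, were 0.54 ± 0.077 and 0.34 ± 0.087, under the fold threshold. Values of several of these genes are close to that threshold, and with limma's treat, which tests for more than a 1.5-fold change, none of the 6 was called. Without LL replicate 2 rla1 was at 0.57 and without DD replicate 3 rps28 was at 0.57, so that neither was called, while rps21 was called at 0.62 without DD replicate 2. With upper-quartile scaling rps21 was at 0.62 and was called.

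RNA processing and translation genes showed 1 called gene among 5. This was TrC0019C, annotated as an aspartyl-tRNA synthetase, an enzyme that charges tRNA with aspartate. Whether its product has this role was not tested. TrC0019C had no read in LL and 80.4, 81.3 and 175 normalized counts in DD. It was at least 114-fold lower in LL (floor of 3 reads over the group, and at least 70.1-fold without LL replicate 2, 74.8-fold without LL replicate 3). The others lay between -0.12 for LSm3 (TrA2076W) and 0.50 for the exonuclease TrA1514W, with 0.44 for LSm6 (TrA1443W) and 0.42 for translation initiation factor 2 alpha (TrE0569W). Without DD replicate 3 LSm6 was called at 0.59, and with upper-quartile scaling TrA1514W was called at 0.59.

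Of 9 genes for carbohydrate-active enzymes, which build or break glycosidic bonds, 1 was called higher and 5 lower. The beta-glucosidase gene bgl3i (TrA0299W) had 2331, 2011 and 2274 normalized counts in LL, against 920, 807 and 756 in DD (1.41 ± 0.12). In contrast, the beta-xylosidase gene bxl1 (TrC1552C), whose product releases xylose in hemicellulose breakdown, fell to 57.4, 56.7 and 78.7 in LL, against 10678, 15796 and 12582 in DD (-7.62 ± 0.27, adjusted p 1.7e-09). The CE10 esterase TrC1211C had 231, 179 and 151 in LL, against 1723, 1401 and 1554 in DD (-3.07 ± 0.27). The GH16 glucanase TrB0225W had 13.4, 9.31 and 27.5 in LL, against 144, 87.8 and 142 in DD (-2.84 ± 0.36). The libraries of LL and DD did not overlap for any of these 4 genes. The GH43 enzyme TrB0877C and the mannosyltransferase TrE0204W were also called lower.

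Small secreted cysteine-rich proteins are a class of short secreted proteins held together by disulfide bonds. Of 7 listed genes for these and for a CFEM protein with a cysteine-rich domain, 6 were called lower. Wild-type levels took part in their selection, which can favour a fall in LL. Mean DD levels of all 7 were higher in the wild-type than in Δrgs4, from 4649 against 961 (TrE0072W) to 1473 against 1461 (TrG0359C). TrD1299W had 8.56, 18.6 and 18.02 normalized counts in LL, against 1648, 1484 and 1926 in DD (-6.68 ± 0.40). The CFEM protein TrG0359C had 37.9, 34.7 and 37.9 in LL, against 1599, 1562 and 1258 in DD (-5.24 ± 0.11). The log2 fold change was -3.71 for TrE0072W, -3.47 for TrE1081C, -1.31 for TrB0322W and -1.27 for TrF0181C. TrG0955C was not called, with 214, 262 and 266 in LL, against 271, 305 and 204 in DD.

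Most of the transporters in these lists, which are not a sample of all transporters, were called lower. Among 6 transporters for amino acids and peptides 3 were called, all lower. The neutral amino acid transporter TrB0212C had 8.56, 11.8 and 24.7 normalized counts in LL, against 4010, 3668 and 3662 in DD (-7.91 ± 0.48). The oligopeptide transporter TrA0967C had 13.4, 22.004 and 36.98 in LL, against 3824, 3265 and 4207 in DD (-7.27 ± 0.29). The GABA permease TrA1398C fell by 1.55. In Dip5 (TrB1799C), a dicarboxylic amino acid permease, and in TrC0132C and TrA0392C the libraries of LL and DD overlapped. Of 8 MFS and ABC transporters, which move small molecules across membranes by proton gradients or by ATP hydrolysis, 7 were called lower. TrG0838W, of the MRP type, had 149, 158 and 205 in LL, against 4206, 4247 and 5113 in DD (-4.72 ± 0.18). The other 6 lay between -1.95 (TrG0323W) and -1.11 (TrC1540W), with -1.64 for TrF0028C, -1.52 for TrE0949C, -1.50 for TrB1039W and -1.19 for TrA0451W. The MFS permease TrC1338C went the other way, with 716, 645 and 772 in LL, against 143, 195 and 188 in DD (2.02 ± 0.21). The plasma membrane H+ ATPase TrA2081W, which sets up the proton gradient, had 1164, 1273 and 2105 in LL, against 2946, 3795 and 3850 in DD (-1.26 ± 0.26). The aquaglyceroporin TrF1134W was not called (0.81 ± 0.37). It was called without LL replicate 3, at 1.12, and at 0.81 without Δrgs4 DD replicate 1, without Δrgs4 DD replicate 3 and with only the wild-type libraries in the fit.

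Of 6 genes for oxidative enzymes and secondary metabolism 4 were called lower, while the alamethicin synthase and a cytochrome P450 were not called. Chloroperoxidases halogenate organic compounds with hydrogen peroxide, and TrE0168W had 24.4, 12.7 and 14.2 normalized counts in LL, against 9793, 10137 and 9000 in DD (-9.03 ± 0.37). The second chloroperoxidase TrE0148W had 329, 352 and 351 in LL, against 2677, 2407 and 2686 in DD (-2.90 ± 0.17). The tyrosinase TrG0897W, which oxidizes phenols on the way to melanin-like pigments, had 17007, 18154 and 15550 in LL, against 84554, 79280 and 82235 in DD (-2.28 ± 0.11). The multicopper oxidase TrB0426W fell by 1.27. For tex1 (TrG0248C), the nonribosomal peptide synthetase of the peptaibol alamethicin, levels were 41710, 30877 and 18389 in LL, against 30636, 22880 and 26630 in DD, and the libraries overlapped. The cytochrome P450 TrD0325W was at -0.11 ± 0.12. Among 4 glutathione-dependent enzymes, which serve in detoxification and redox balance, only TrB1934C was called (-0.59 ± 0.19). Its value was beside the threshold, and it was not called without DD replicate 3 (-0.52), without LL replicate 1 (-0.56), without LL replicate 2 (-0.55), with TMM scaling (-0.57) or with upper-quartile scaling (-0.50). TrF1200C was at -0.32, TrB1911C at 0.23, and TrE0246W had 508, 542 and 598 in LL, against 514, 579 and 570 in DD.

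A regulator with a myb domain, a DNA-binding fold, was strongly higher in light. TrE0456W had 434, 421 and 536 normalized counts in LL, against 9.46, 7.49 and 6.04 in DD (5.60 ± 0.18, adjusted p 1.1e-09). The other called regulators were lower in LL, namely TrB0388C with a SANT/myb domain (-1.95 ± 0.18), the Zn2Cys6 regulators TrF0357C (-1.81 ± 0.21) and TrB1006C (-0.70 ± 0.095), and the transcription factor TrA1148C (-1.06 ± 0.13). The acetyltransferase TrC1021W (0.27 ± 0.22) and the transcription factor TrB0194W, with 46.4, 60.1 and 56.9 in LL, against 60.6, 69.6 and 45.3 in DD, were not called. The 4 genes listed for helicases, AAA ATPases and RNA silencing, which are not a sample of all such genes, were called lower. TrC0827C, with the domains of an RNA-dependent RNA polymerase and a helicase as known from RNA silencing, had 14.7, 11.002 and 18.02 in LL, against 336, 300 and 263 in DD (-4.20 ± 0.23). The DEAD-box helicase TrA0526W was at -2.98 ± 0.22, and the AAA ATPases TrA1371W and TrB1478C were at -4.04 ± 0.19 and -1.74 ± 0.16.

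The 4 listed genes for proteases and peptidases, enzymes that cleave proteins or their ends, are not a sample of all such genes. All 4 were called lower, namely the trypsin-like protease TrE0929C (-2.84 ± 0.26), the D-aminopeptidase TrF0056W (-2.09 ± 0.23), carboxypeptidase A (TrB0248C, -1.12 ± 0.12) and the serine carboxypeptidase TrB1064C (-0.97 ± 0.38, adjusted p 0.046). The call of TrB1064C was lost without each of DD replicates 1, 2 and 3 (-1.04, -0.85 and -1.02), without LL replicate 1 (-0.70), without LL replicate 2 (-1.08), and without Δrgs4 DD replicate 2 or Δrgs4 LL replicate 3 (-0.97 each). It was also lost with upper-quartile scaling, with no filter on low counts and with limma-voom.

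Among 15 dehydrogenases and other enzymes of core metabolism 8 were called lower and 1 higher. The cyclopropane fatty acid synthase TrB1908C, which modifies membrane lipids in bacteria, had 86.8, 102 and 84.4 normalized counts in LL, against 15362, 11866 and 12673 in DD (-7.16 ± 0.21, adjusted p 5.1e-10). The short chain dehydrogenases TrB1260C, TrF0378C and TrG0370W were at -3.53, -3.06 and -2.25. The adenosine/AMP deaminase TrA1929W, an enzyme of purine breakdown, was higher, with 376, 356 and 303 in LL, against 90.8, 95.3 and 99.6 in DD (1.83 ± 0.10). Of 11 genes for organelle import, sorting and folding, 2 were higher and 1 was lower. These were tim17 (TrB0123W, 0.90 ± 0.11), a subunit of the mitochondrial import channel, prefoldin subunit 6 (TrB1223W, 0.67 ± 0.17), which hands unfolded proteins to chaperonins, and the FKBP-type prolyl isomerase TrG1028C, with 0, 3.39 and 2.84 in LL, against 155, 166 and 123 in DD (-5.32 ± 0.38).

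The genes mutated in RutC30 or QM9123, strains bred for high cellulase production, comprised 6 genes, of which 3 were lower. The muconate cycloisomerase TrC0885C, of aromatic compound breakdown, had 52.6, 77.0 and 106 normalized counts in LL, against 1016, 1061 and 1232 in DD (-3.83 ± 0.21). TrF0044C of unknown function (-2.18 ± 0.22) and the permease TrF0028C given above were the other called genes. TrF0013C and TrD0796W, both of unknown function, were at -0.55 ± 0.28 and 0.49 ± 0.12, and the Arc15 ortholog TrC0611W, a subunit of the actin-nucleating Arp2/3 complex, was at -0.20 ± 0.088.

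Genes that were lower in light often lay beside each other. Secondary metabolite genes of fungi are commonly clustered on the chromosome, and genes read away from each other share the region between their starts. Among 7521 pairs of consecutively numbered genes that were both tested, the next gene was called lower in 604 of 1493 pairs that began with a gene called lower (40.5%), while 20.01% of all second genes were called lower. For genes called higher the next gene was also higher in 255 of 1158 pairs (22.02%), against 15.3% of all second genes. The share depended on orientation. After a gene called lower, the next was lower in 54.0% of divergent pairs (19.3% of all their second genes), 39.9% of tandem pairs (22.4%) and 30.04% of convergent pairs (17.5%). For genes called higher the shares were 26.03% (14.9%), 25.1% (15.9%) and 14.2% (14.9%). Pearson's r of the log2 fold changes across pairs was 0.51 in 2232 divergent, 0.27 in 3035 tandem and 0.17 in 2254 convergent pairs. Pairs share genes and libraries, so this is a description. Whether reads of overlapping neighbours were shared between them in the counting was not tested.

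**Figure D4:**
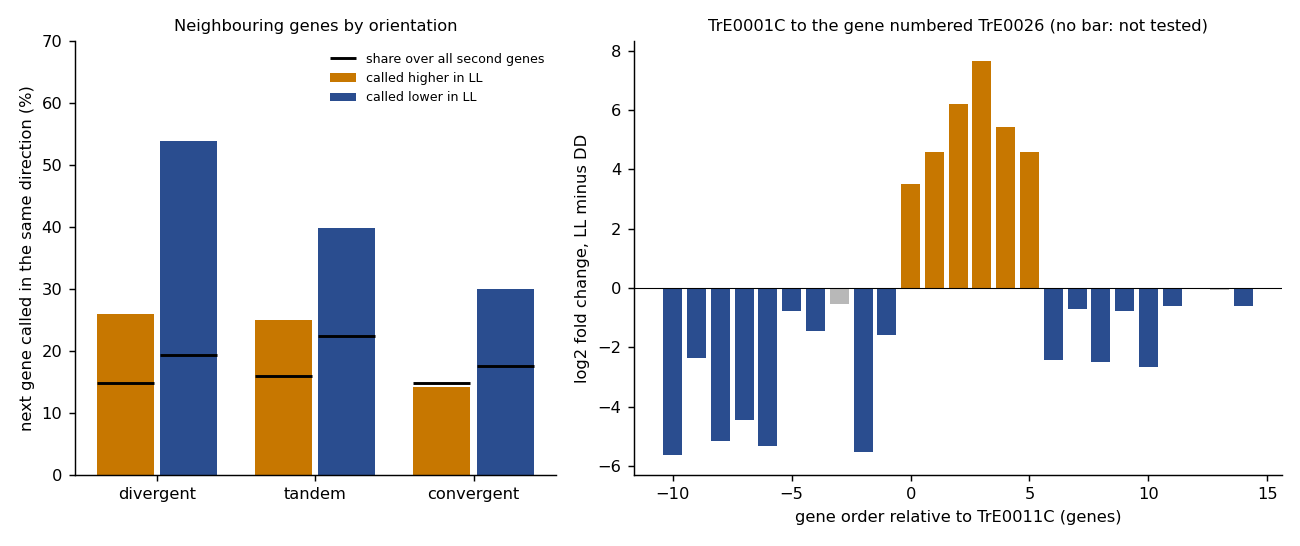
Left, percent of called genes whose next gene was called in the same direction, for divergent, tandem and convergent pairs, with a line for the share over all second genes of such pairs. Right, log2 fold change (LL minus DD, on log2(normalized counts + 2)) by gene order at the start of chromosome E, where the 6 genes of the siderophore cluster stand above 0 between genes called lower.

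Uninterrupted runs of 2 or more genes called in 1 direction comprised 197 runs with 452 genes called higher and 371 runs with 975 genes called lower. Runs of at least 5 genes numbered 5 and 22. The longest run of genes called lower was TrD1379C to TrD1389W, with 11 genes. Summed levels were 1495, 1537 and 1515 normalized counts in LL, against 4992, 5197 and 5103 in DD, and the log2 fold changes lay between -5.04 and -0.89. The decrease was thus steady between libraries but of very different size between the genes of the run. The longest run of genes called higher was the siderophore cluster itself, TrE0011C to TrE0016W. Its summed levels were 3194, 1427 and 849 in LL, against 47.3, 41.7 and 51.3 in DD, a 39.0-fold difference of the means, which was 24.3-fold without LL replicate 1.

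The following runs were chosen after their values were seen. On either side the siderophore cluster was bordered by genes called lower. The run TrE0001C to TrE0007W had summed levels of 218, 220 and 247 normalized counts in LL, against 1023, 1775 and 1251 in DD, and TrE0009C and TrE0010C were also called lower (-5.53 and -1.60). Directly after the cluster, the 6 genes TrE0017C to TrE0022W had summed levels of 1887, 2028 and 2038 in LL, against 10210, 11272 and 9376 in DD. Most of these counts fell on TrE0021C, with 1325, 1492 and 1588 in LL, against 9271, 10360 and 8409 in DD. The log2 fold changes of the other genes of this run were -2.42 (TrE0017C), -0.72 (TrE0018C), -2.49 (TrE0019W), -0.79 (TrE0020C) and -0.62 (TrE0022W). The direction therefore changed from gene to gene at both borders. A change of direction was also seen on chromosome C. The 5 genes TrC1159C to TrC1163C were called higher, with summed levels of 106459, 103233 and 78756 in LL, against 17025, 18275 and 15862 in DD, a 5.64-fold difference. The next 5 genes, TrC1164C to TrC1168C, which include TrC1166C, were called lower, with 2207, 2054 and 2071 in LL, against 180059, 197378 and 179576 in DD. Most of these DD counts fell on TrC1166C, with 176548, 193589 and 175674. The log2 fold changes of the other genes of this run were -0.89 (TrC1164C), -4.81 (TrC1165C), -2.38 (TrC1167C) and -0.80 (TrC1168C). At the end of chromosome A, the 8 genes TrA2141C to TrA2148W fell to 128, 213 and 229 in LL, against 1245, 1394 and 1428 in DD. Only 1 numbered gene follows this run.

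The libraries of Δrgs4, which entered no wild-type group, were used to see whether the same genes changed in other cultures. Across the 8895 tested genes Pearson's r of the log2 fold changes of both strains was 0.96. Of the 3280 genes called in the wild-type 3230 (98.5%) had the same sign in Δrgs4, where 1266 genes were called higher and 1955 lower in LL. In both strains 2614 genes were called in the same direction, which is 81.2% of the calls in Δrgs4 and 79.7% of the calls in the wild-type, and 2 were called in opposite directions. TrE0391W was at 11.23 in Δrgs4 and at 11.18 in the wild-type, and TrC1166C was at -9.66 in Δrgs4 and at -9.76 in the wild-type. All 7 genes of TrE0659C to TrE0665C and all 11 of TrD1379C to TrD1389W were also called lower in Δrgs4. Of the 6 siderophore genes 5 were called higher there, but their rise was smaller. The median log2 fold change of the cluster was 2.75 in Δrgs4, against 4.99 in the wild-type. Values in Δrgs4 minus those in the wild-type were negative for each gene of the cluster, between -3.50 (TrE0013C) and -1.59 (TrE0012W). By the test of this difference given below, only that of SID6 was called.

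The difference between the light responses was tested as the interaction of genotype and light. It was called for 63 genes (0.708% of those tested), with 18 values above 0 and 45 below, and 34 of the 63 were among the genes called in the wild-type. The unadjusted p was under 0.05 for 1561 genes. The count rested on single libraries. Without Δrgs4 DD replicate 3, 89 and 104 genes were called with values above and below 0, while leaving out any other library gave at most 10 and 28. With treat against 1.5-fold 0 genes were called. In 24 of the 109 annotated genes the interaction was called, among them all 6 ribosomal protein genes, with log2 fold changes between -0.56 and -0.07 in Δrgs4 (none called) and between 0.34 and 0.84 in the wild-type. As the annotated genes were selected for a change in Δrgs4, these are no independent sample.

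**Figure D5:**
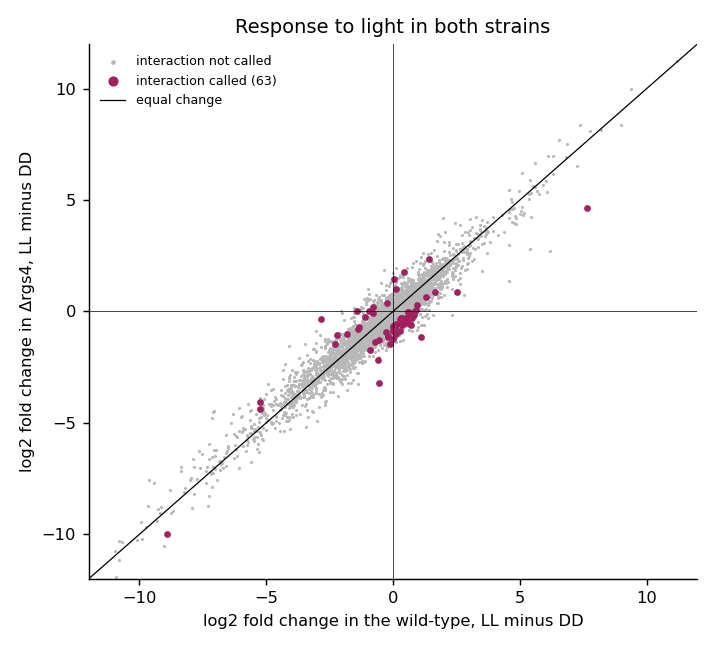
Log2 fold change of each tested gene in Δrgs4 (vertical axis) and in the wild-type (horizontal axis), LL minus DD on log2(normalized counts + 2), with a line of equal change. Pearson's r is 0.96, and the 63 genes with a called interaction are in colour.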

How the data were processed

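Cultures were grown in biological triplicates. Per the labels and the paper's methods, RNA was isolated with an RNeasy kit, stranded libraries were made after ribosomal RNA depletion and sequenced in paired-end mode, and reads were trimmed with bbduk, aligned to the QM6a genome with HISAT2 2.2.1 and counted with featureCounts. The sources used here do not give the strand setting, the treatment of multiply aligned reads or whether pairs were counted as 1, and values of overlapping or near-identical genes are uncertain for this reason. The authors deposited variance stabilized values on a log2 scale for 10879 genes, made from size-factor normalized reads of all 12 libraries. A second table holds raw counts in 12 columns named by sequencing identifiers that neither labels nor paper pair with samples, and it was not used. The lowest deposited value (6.74) stands for 0 reads. Inverting the transformation gave normalized counts, and the smallest step per library gave whole reads for 100% of values within 0.01.

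Log2(normalized counts + 2) was tested with limma 3.58.1 (trended variance) in R 4.3.3, with 4 group means and all 12 libraries. With the added 2, changes of genes with low levels come out too small. Tested genes had at least 10 reads in at least 3 libraries. Genes were called at a log2 fold change above 0.58 in size and an adjusted p under 0.05. The fit alone was run on simulated reads in which few genes changed and the size factors were known. Neither the inversion nor the size factors were tested in this way. Python 3.11.15, pandas 2.3.3 and matplotlib 3.10.9 were used for tables and plots.

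The comparison, the gene lists and the rules were chosen with earlier results of these data known. Named genes are all members of lists with up to 8 genes, and of longer lists the 4 called genes with the largest change and called genes that go against the rest. To these come the 2 largest rises and the 2 largest falls with at least 100 normalized counts and no overlap, the longest runs of neighbours, the genes with most reads, and rgs4. Some additional genes were named after their values were seen (TrE0662C, TrE0009C, TrE0010C, TrB0877C, TrE0204W and the runs marked in the text). No lists were tested as sets. Intervals and floors cover counting error only. Gene names come from the paper's text and its supplement, since the reference annotation used here pairs with none of the identifiers. Alternatives comprised TMM and upper-quartile scaling, only the 6 wild-type libraries, the replicate number as a block, other filters and pseudocounts, the values as deposited, limma-voom, adjusted p alone, treat against 1.5-fold, and leaving out each of the 12 libraries. limma-voom with only the 6 wild-type libraries and folds of runs and of genes near 0 reads without single wild-type libraries were added after seeing the data.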

Additional observations from a re-analysis of the deposited data

Results flagged for a closer look

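In 24 annotated genes the change in light differed between the strains by the test of that difference (adjusted p between 0.0025 and 0.049, limma with Benjamini-Hochberg adjustment). The values given are log2 fold changes in Δrgs4 minus those in the wild-type. The authors selected these genes for a change in Δrgs4 on the same libraries, and 20 of the 24 calls were lost without at least 1 of the libraries, 18 of them without at least 6 of the 12 in turn. With treat against 1.5-fold none of the 24 was called. The sign was the same in all alternatives run. Among the iron genes, the difference was -2.9998 for SID6 (TrE0014C) and -2.27 for the iron transporter TrD0323C, whose log2 fold change was -1.15 in Δrgs4 and 1.11 in the wild-type. For the ribosomal protein genes it was -0.94 for rla1 (TrB1847W), -0.98 for rla2 (TrD0208W), -0.93 for rps21 (TrB0594C), -1.22 for rps28 (TrC1311W), -0.63 for TrC1283C and -0.76 for TrB0953C. For genes of RNA processing, import and the actin cytoskeleton it was -0.79 for TrA1514W, -0.83 for tim17 (TrB0123W) and -0.91 for the Arc15 ortholog TrC0611W. TrD0796W, of unknown function, had -1.02. Metabolic enzymes had -0.82 (TrG0013W, mannitol-1-phosphate dehydrogenase), -0.91 (TrA1757W, 3-hydroxyisobutyrate dehydrogenase), -0.95 (TrD1325C, succinate-CoA ligase), -1.33 (TrD0325W, a cytochrome P450) and -1.62 (TrB1934C, a glutathione S-transferase). The regulator TrB1006C had -0.68. Positive differences were found for bgl3i (TrA0299W, 0.92), the GH16 glucanase TrB0225W (2.51), the CFEM protein TrG0359C (0.87), Dip5 (TrB1799C, 1.42), the tyrosinase TrG0897W (0.80) and carboxypeptidase A (TrB0248C, 0.86). The log2 fold change of TrB0225W in light was -0.33 in Δrgs4, where it was not called, and -2.84 in the wild-type. Dip5 was called higher in light in Δrgs4, at 1.46, and was at 0.03 in the wild-type.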

How the results depend on the processing

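The wild-type counts of 1361 genes called higher and 1919 called lower in LL were within 1.5 times of the reported ones under all alternatives except these. The values as deposited gave 721 higher genes, adjusted p alone gave 2544 higher genes, and treat against 1.5-fold gave 649 higher and 1278 lower genes. Leaving out each library in turn gave 1286 to 1398 higher and 1814 to 1967 lower genes. TMM scaling shared 3253 of the calls, upper-quartile scaling 3138, limma-voom 3182 and the values as deposited 2008, with 0 calls in the opposite direction. Upper-quartile scaling moved the median of all genes to 0.07 and the share of higher genes among the calls to 48.0%, from 41.5%. With no filter the counts were 1420 and 2067, and with at least 10 reads in every library 1192 and 1349, where genes without reads in 1 condition are not tested. limma-voom with only the 6 wild-type libraries gave 1404 and 1981.

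Replicate numbers are shared between the groups, but deviations of LL and DD libraries with the same number correlated at 0.15, -0.01 and 0.002, so that the numbers were not taken as pairs. With the replicate block 1354 genes were called higher and 1910 lower, 3242 of them shared with the reported calls, and the interaction was called for 0 genes above and 4 below 0.

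The interaction, with 18 genes above and 45 below 0, changed with many settings. There were 3 and 23 with upper-quartile scaling, 9 and 28 with no filter and 0 of each with treat. Above 0 there were 10 with limma-voom and 36 with adjusted p alone, and below 0 there were 22 with the values as deposited. Leaving out each library gave 0 to 89 above and 7 to 104 below 0. With only the wild-type libraries it has no value.

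Of 70 called genes named in the text with a wild-type value none changed sign, and 14 lost their call under some setting. Of 22 that were not called, 6 changed sign. Without single libraries, TrG0955C ranged from -0.22 to 0.064, Dip5 (TrB1799C) from -0.12 to 0.23, TrA0392C from -0.16 to 0.0050, tex1 (TrG0248C) from -0.15 to 0.44, TrE0246W from -0.076 to 0.041 and TrB0194W from -0.25 to 0.046. With upper-quartile scaling TrG0955C was at 0.025 and TrE0246W at 0.073. For genes with few reads in 1 condition the spread may be underestimated, because the trend is read at the mean over both conditions. Depth limits genes near 0 reads, where fold changes are given as bounds.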
